A study of Homo sapiens with 6 samples.

Results

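Cytosolic ribosomal protein genes encode the proteins of the small (40S) and large (60S) subunits of the ribosome that translates nuclear messages in the cytosol. Members were chosen by symbol: RPL or RPS followed by digits with an optional A or X, or RPLP0, RPLP1, RPLP2 or RPSA, with pseudogenes left out. The rule finds 77 of the 56303 genes in the deposited table, 46 of the 60S subunit and 31 of the 40S subunit. T24, an established human bladder carcinoma line, was transfected with a control siRNA (siNC, genotype label WT) or with siRNA against FBXL6 (siFBXL6, genotype label FBXL6 knockdown), with 3 libraries per group. FBXL6 is an F-box protein, the part of a ubiquitin ligase that binds the substrate, and the study asked which genes respond when it is depleted. Stranded mRNA libraries were sequenced, and all 6 carry the same batch label. The siNC libraries held 58646515, 60967902 and 56814946 counts, and the siFBXL6 libraries held 60968158, 60898556 and 60754015. The labels do not say whether libraries of a group come from separate cultures, so the p-values measure the spread between these samples. The study had 2 siRNAs against FBXL6, told apart by a number, and a single control siRNA, whereas the labels run from 1 to 3 in both groups. What the numbers in the labels mark, and which siRNA each siFBXL6 library received, is not stated. They were taken as replicates, so the SD of the siFBXL6 group may hold a difference between siRNAs.

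FBXL6, the target of the siRNA, does not separate the groups in these libraries. Its raw counts were 362, 414 and 398 in siNC and 398, 344 and 350 in siFBXL6. The highest siFBXL6 count equals a siNC count, and the groups overlap. As CPM (the count divided by the TMM-scaled library total, times a fixed factor shared by all libraries), FBXL6 was at 6.61 ± 0.38 in siNC and 6.03 ± 0.483 in siFBXL6 (SD, n = 3), a log2 fold change of -0.13 with a 95% interval of -0.31 to 0.05 and an adjusted p of 0.247 in edgeR's quasi-likelihood test. All fold changes below are libraries labelled siFBXL6 over libraries labelled siNC. A fall of the FBXL6 message beyond the lower bound of -0.31 lies outside that interval, and the groups are named by their labels throughout. ACTB, a cytoskeletal actin often used as a reference, had a log2 fold change of 0.00 (adjusted p = 0.996), and GAPDH, a glycolytic enzyme also used as a reference, rose by 1.80 on the log2 scale (adjusted p = 4.9e-31).

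The libraries carry the markers of an epithelial line in both groups. For the summed lists and their most abundant gene, CPM here divides by the library total without TMM scaling. Summed over KRT7, KRT8, KRT18 and KRT19, the simple epithelial keratins, the level was 3007, 2955 and 3034 CPM in siNC and 2693, 2665 and 2675 CPM in siFBXL6, with KRT7 the most abundant at 1010 CPM, and 3 of the 4 fell. A basal urothelial list led by CD44 summed to 1005, 999 and 1012 CPM in siNC and 1152, 1142 and 1179 CPM in siFBXL6, and 3 of its 5 genes rose and 1 fell. A luminal list led by PPARG summed to 94.3, 93.4 and 98.4 CPM against 83.1, 85.5 and 84.7 CPM, and 2 of its 4 tested genes, of 8 listed, fell. A mesenchymal list led by FN1 summed to 2652, 2611 and 2541 CPM against 2249, 2289 and 2302 CPM, and 1 of its 4 genes rose and 2 fell. UPK1A, a uroplakin of differentiated urothelium, was at 0 in every library, and KRT20 and UPK3A had at most 3 counts in any library. All 4 sums differ between the groups without overlap, and their part in the results below was not tested. At an adjusted p under 0.05, 40.2% of all genes tested differed between the groups, and the CPM of 48.2% did not overlap. Among genes with a mean log2 CPM of at least 6, 66.9% differed. Leukocyte markers summed to at most 1.54 CPM in any library, endothelial markers to at most 3.18 CPM and globins, with HBA1 at 0 in every library, to at most 0.165 CPM. PECAM1, an endothelial marker, rose by 1.28 (adjusted p = 4.4e-05) at 0.573 ± 0.126 and 1.39 ± 0.365 TMM-scaled CPM (SD, n = 3). In such bulk samples, fewer cells of a kind and less RNA per cell cannot be told apart.

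A ribosome holds a single copy of most of its proteins, so cells need the many proteins in balanced amounts. In vertebrates these messages begin with a C followed by an uninterrupted run of pyrimidines, the 5′ terminal oligopyrimidine (TOP) tract, through which mTOR signaling and LARP1 set how well they are translated and how long they last. Most of the genes have left processed pseudogenes across the genome, and many carry small nucleolar RNA (snoRNA) genes in their introns. Cancer cells that grow fast need many ribosomes, and several of the genes are lost in inherited anemia.

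The start sites show the feature that the messages share and that the naming rule did not use. The table of RefSeq promoters (GRCh38.p14) lists 62 of the 77 members. Each window below runs 5′ to 3′ on the gene's strand over 30 bases, from 10 before the listed start, and capitals mark the pyrimidine tract. A tract was a C followed by at least 4 further C or T, with that C at most 5 bases from the start, read on the gene's strand alone. The first 4 belong to the members with the highest fold changes, the next 3 to members that fell, and RPLP2 and RPS6 to members with no call. RPL22 is shown for comparison with its paralog RPL22L1.
RPL10: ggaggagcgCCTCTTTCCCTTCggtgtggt
RPL13A: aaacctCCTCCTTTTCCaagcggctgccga
RPL41: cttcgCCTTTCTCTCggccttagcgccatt
RPL39: ccgccagCTTCCCTCCTCTTCCTTTCTCCg
RPL28: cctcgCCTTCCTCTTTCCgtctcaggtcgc
RPSA: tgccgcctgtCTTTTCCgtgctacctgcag
RPS27: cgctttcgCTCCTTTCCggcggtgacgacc
RPLP2: tcggcgCCTTCCTTTTCCTCCCTgtcgcca
RPS6: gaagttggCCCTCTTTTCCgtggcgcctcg
RPL22: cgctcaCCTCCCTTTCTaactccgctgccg
RPL22L1: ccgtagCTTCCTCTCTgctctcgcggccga

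These windows lie at chrX:154398367-154398396 for RPL10, chr19:49487598-49487627 for RPL13A, chr12:56116623-56116652 for RPL41 and chrX:119791611-119791640 for RPL39 (minus strand). The fallen members are at chr19:55385922-55385951 (RPL28), chr3:39406710-39406739 (RPSA) and chr1:153990752-153990781 (RPS27). RPLP2 is at chr11:809957-809986, and on the minus strand RPS6 is at chr9:19380217-19380246, RPL22 at chr1:6199576-6199605 and RPL22L1 at chr3:170870176-170870205. A tract was found for 53 of the 62 listed members (85.5%), against 6886 of the 27305 genes in the table (25.2%) and 21.1% of its 35116 starts. The longest tract printed, 22 bases, is that of RPL39. RPL27, RPL17 and RPS15 are listed with no such letters in the window. A match describes the letters and was not tested as a site.

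Most of the called members rose, and all differences were small. All 77 members passed the filter on low counts. At an adjusted p under 0.05, 25 members rose and 5 fell, so 30 of 77 (39%) were called, where 40.2% of all 21298 genes tested were called (20.5% higher and 19.8% lower). The members' share is near that background. It is below the 59.2% called among genes tested at or above the mean log2 CPM of the lowest member. Among genes with a mean log2 CPM of at least 6, a limit chosen after seeing the data, 28 of 68 members were called (41.2%) against 66.9% of 3164 genes. The CPM of the groups did not overlap for 39 members (50.6%), against 48.2% of all genes tested. Of the 53 members with a tract at a listed start, 19 rose and 3 fell, and of the 24 others, which include 15 not listed, 6 rose and 2 fell.

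The sizes are small. Log2 fold changes of the members ran from -0.14 to 0.24 with a median of 0.03, where the median over all genes tested was -0.01. Without regard to sign the median was 0.06 for the members and 0.18 for all genes. No interval of a member reached below -0.21 or above 0.31, and no member reached a change of 1.5-fold in either direction, whatever its p, where 7.42% of all genes tested were called with such a change. In edgeR 38 of 77 members had an unadjusted p under 0.05, where 9960 of 21298 genes did. DESeq2 called 31 of 77 members, where it called 32.5% of all genes it tested. The higher share among the called depends on the scaling: 83.3% with TMM (all genes 50.9%), 67.9% with upper-quartile scaling, where 19 rose and 9 fell (all genes 45.7%), and 63.3% with library size alone, where 19 rose and 11 fell (all genes 45.1%). Of the 30, 17 were called in each of the 17 settings run. Among them are RPL10, RPL13A, RPL41, RPL39, RPL27, RPL4, RPL17, RPL38, RPL37A, RPL23A, RPS7, RPS25 and RPS12, which rose, and RPS2, RPS15 and RPL28, which fell. A further 31 members were called in no setting.

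**Figure D1:**
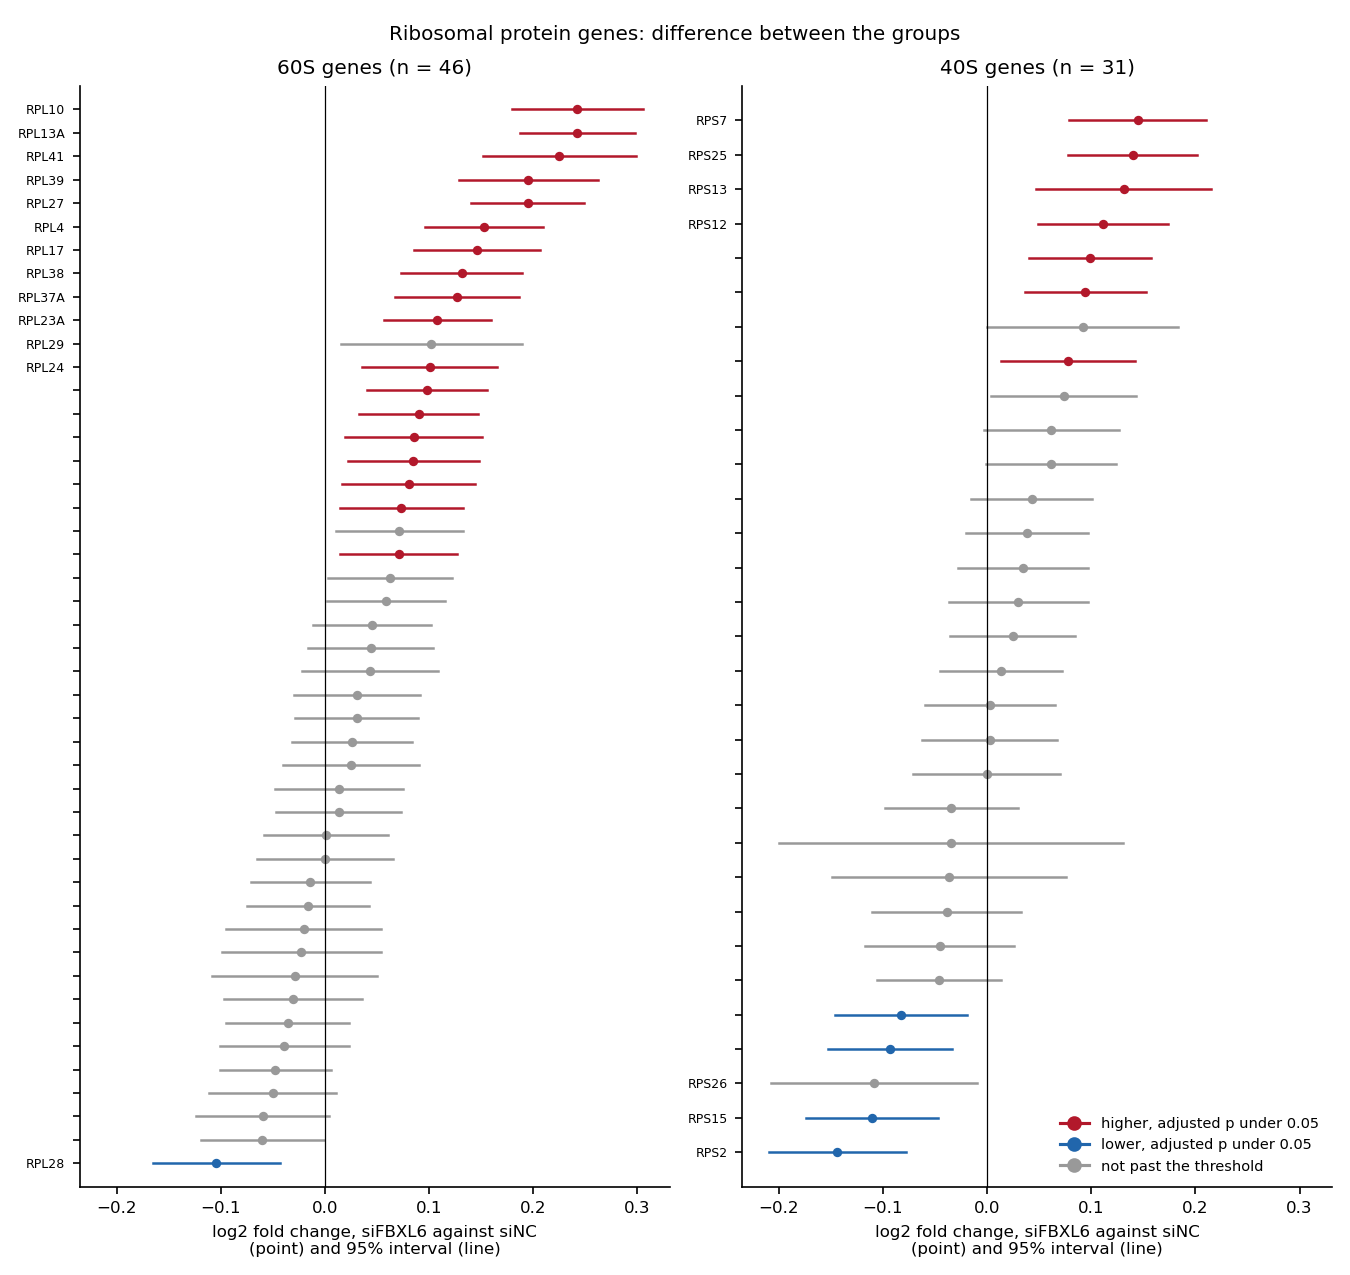
Log2 fold change of each of the 77 members (libraries labelled siFBXL6 over siNC) with its 95% interval, 60S members on the left and 40S members on the right. Red points rose, blue points fell and grey points did not pass an adjusted p of 0.05 in edgeR's test. All points lie between -0.14 and 0.24, and those at least 0.1 from 0 carry their symbol.

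Of the 60S members, 18 rose and 1 fell out of 46, with a median log2 fold change of 0.04. The share called, 41.3%, is near the 40.2% of all genes tested. It is below the 59.2% of genes at or above the lowest member level. With library size alone 13 rose and 5 fell, and with upper-quartile scaling 13 rose and 4 fell. The peptidyl transferase side of the subunit, where peptide bonds form, holds RPL10, RPL3 and RPL8. RPL10, a protein that joins the subunit late in its maturation, gave 94.8, 91.2 and 95 CPM in siNC and 110.4, 110.3 and 111.8 CPM in siFBXL6. All 3 siFBXL6 libraries lie above all siNC libraries, with a gap wider than the spread of either group. The means were 93.7 ± 2.11 and 111 ± 0.857 CPM (SD, n = 3), and the log2 fold change was 0.24 (95% interval 0.18 to 0.31, adjusted p = 7.21e-08). RPL3, which reaches toward the same center, rose by 0.07 (adjusted p = 0.0395). That call is lost with upper-quartile scaling (adjusted p = 0.154), with library size alone (0.129), and without siNC replicate 2 (0.137) or siFBXL6 replicate 1, 2 or 3 (0.158, 0.0542 and 0.132). RPL8 was not called (-0.04, adjusted p = 0.358).

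The exit tunnel and its rim, through which the new chain leaves, hold 9 members, of which 6 rose and the other 3 were not called (66.7% called), with a median log2 fold change of 0.09. That share is above the 40.2% of all genes tested. It is near the 66.9% called among genes with a mean log2 CPM of at least 6, a limit chosen after seeing the data. RPL39, a very small protein that lines the tunnel, gave 87.5, 94.9 and 93.2 CPM in siNC and 106, 104 and 106 CPM in siFBXL6. The siNC libraries vary more than the siFBXL6 libraries, and the groups do not overlap. Its log2 fold change was 0.20 (SE 0.0328, adjusted p = 9.33e-06). RPL4, which narrows the tunnel with an extended loop, gave 740, 727 and 745 CPM against 822, 798 and 838 CPM. Every siFBXL6 library is above every siNC library, and the log2 fold change was 0.15 (adjusted p = 3.21e-05). RPL17, which lines the tunnel beside RPL4, gave 252, 248 and 250 CPM against 281, 268 and 282 CPM, a log2 fold change of 0.15 (adjusted p = 0.000143). RPL23A, the docking site at the exit for factors that meet the nascent chain, gave 2566, 2560 and 2620 CPM against 2814, 2733 and 2800 CPM. The groups are apart for both of these genes, and RPL23A, with the most counts of all members, rose by 0.11 (adjusted p = 0.000758). RPL22, at 832, 778 and 807 CPM in siNC and 789, 768 and 762 CPM in siFBXL6, overlaps between the groups. It was not called (-0.06, adjusted p = 0.0985), but is called lower with upper-quartile scaling (0.0311), with library size alone (0.011) and without siNC replicate 2 (0.0255). RPL19, also near the exit, was at 0.00 (adjusted p = 0.983).

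Other 60S members with the widest differences sit elsewhere on the subunit. RPL13A, known also for silencing translation of inflammatory messages once it leaves the ribosome, gave 889, 868 and 895 CPM in siNC and 1067, 1033 and 1038 CPM in siFBXL6. The siFBXL6 libraries are all higher, and its log2 fold change of 0.24 (SE 0.0272, adjusted p = 5.33e-09) has the smallest adjusted p among the members. RPL41, the shortest ribosomal protein, which bridges the subunits, gave 54.3, 55.4 and 58.7 CPM against 64.6, 64.8 and 67.3 CPM. Again no siNC library reaches the siFBXL6 range, and the log2 fold change was 0.22 (SE 0.036, adjusted p = 4.23e-06). RPL27, mutated in rare cases of Diamond-Blackfan anemia, gave 907, 883 and 907 CPM against 1038, 1020 and 1028 CPM (log2 fold change 0.19, adjusted p = 3e-07). RPL38, needed in mice for translation of a subset of Hox messages, gave 372, 365 and 374 CPM against 411, 397 and 409 CPM (log2 fold change 0.13, adjusted p = 0.000328). Neither gene overlaps between the groups.

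RPL28, a surface protein with no bacterial counterpart, is the single 60S member that fell. It gave 179, 181 and 186 CPM in siNC and 169, 169 and 170 CPM in siFBXL6, a log2 fold change of -0.10 (95% interval -0.17 to -0.04, adjusted p = 0.00518). The siFBXL6 libraries are nearly identical and lie below all siNC libraries. RPL13 was not called (-0.06, adjusted p = 0.129), but is called lower with upper-quartile scaling (0.0434), with library size alone (0.032) and without siNC replicate 1 (0.0485).

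No member of the P stalk, the arm that recruits elongation factors, passed the test. Its messages encode RPLP0, RPLP1, RPLP2 and RPL12. Of these 4, 0 were called by edgeR (0 at an unadjusted p under 0.05 and 0 by DESeq2). For comparison, edgeR called 40.2% of all genes tested and 66.9% of those with a mean log2 CPM of at least 6. RPLP0 gave 547, 539 and 574 CPM in siNC and 567, 556 and 572 CPM in siFBXL6, with the siFBXL6 values inside the siNC range. The log2 fold changes were 0.03 for RPLP0, 0.00 for RPLP1, 0.01 for RPLP2 and 0.01 for RPL12, and their intervals stay between -0.06 and 0.09. The 5S particle is where RPL5 and RPL11 hold the 5S rRNA, and both can bind MDM2 outside the ribosome. Of these 2, 0 were called by edgeR (0 at an unadjusted p under 0.05 and 0 by DESeq2), against the same 40.2% and 66.9%. RPL5 gave 2543, 2442 and 2532 CPM against 2467, 2372 and 2433 CPM, so its groups overlap (log2 fold change -0.05, adjusted p = 0.156). RPL11 gave 219, 211 and 221 CPM against 209, 208 and 211 CPM, close but without overlap (log2 fold change -0.05, adjusted p = 0.19). Other scaling moves this pair past the threshold: RPL5 is called lower with upper-quartile scaling (0.0466), and both with library size alone (0.0147 for RPL5 and 0.0395 for RPL11).

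Of the 31 members of the 40S subunit, 7 rose and 4 fell, with a median log2 fold change of 0.02. The share called was 35.5%, against 40.2% of all genes tested and 59.2% of those at or above the lowest member level. With library size alone 6 rose and 6 fell. The count called is 7 without siFBXL6 replicate 2. RPS2, RPS3, RPS26 and RPS28 lie along the channel that threads the message through the subunit. RPS2, at the channel's entry, gave 409, 446 and 446 CPM in siNC and 405, 388 and 385 CPM in siFBXL6. The lowest siNC library and the highest siFBXL6 library nearly meet, yet the groups do not overlap. With means of 434 ± 21.3 and 393 ± 10.6 CPM (SD, n = 3), its log2 fold change of -0.14 (95% interval -0.21 to -0.08, adjusted p = 0.000449) is the lowest among the members. RPS26, at the channel's exit, gave 26.4, 28.5 and 30.3 CPM against 26.0, 26.5 and 26.5 CPM. The groups overlap through siNC replicate 1, and the log2 fold change of -0.11 was not called (adjusted p = 0.0752). It is called lower without siNC replicate 1 (0.00884), with upper-quartile scaling (0.0333) and with library size alone (0.0358). RPS3, on the other side of the entry, was at 0.04 (adjusted p = 0.251).

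The decoding site and the head of the subunit hold 5 listed members, of which 1 rose and 1 fell. The share called, 40%, is near the 40.2% of all genes tested and below the 59.2% at or above the lowest member level. RPS15, whose tail reaches toward the decoding site, gave 101, 103 and 106 CPM in siNC and 95.7, 95.5 and 95.6 CPM in siFBXL6. All siFBXL6 libraries are lower and almost equal, and the log2 fold change was -0.11 (SE 0.031, adjusted p = 0.00423). RPS12, on the head, gave 137, 139 and 144 CPM against 150, 152 and 152 CPM. It moved the other way, with a log2 fold change of 0.11 (adjusted p = 0.00352) and no overlap. RPS18 was not called (0.07, adjusted p = 0.0858), but is called higher without siNC replicate 3 (0.00775). RPS27A, made as a fusion with ubiquitin, was at 0.03 (adjusted p = 0.511).

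RPSA, which sits near the message's exit and is known also as a laminin receptor, fell. It gave 289, 279 and 289 CPM in siNC and 268, 263 and 272 CPM in siFBXL6, with no overlap, a log2 fold change of -0.09 and an adjusted p of 0.0107. The call is lost without siFBXL6 replicate 2 (0.0793) and when counts of pseudogenes named after RPSA are summed in (-0.06, adjusted p = 0.0929). RPS27, a zinc finger protein, gave 130, 126 and 133 CPM against 123, 123 and 122 CPM (log2 fold change -0.08, adjusted p = 0.0323). Its groups do not overlap, but the call is lost without siNC replicate 3 (0.135), without siFBXL6 replicate 1, 2 or 3 (0.084, 0.0831 and 0.111) and with no filter on low counts (0.0508). RPS7, mutated in some families with Diamond-Blackfan anemia, gave 128, 131 and 138 CPM against 147, 142 and 149 CPM. The siFBXL6 libraries are all higher (log2 fold change 0.14, adjusted p = 0.000449). RPS25, used by viral internal ribosome entry sites, gave 139, 140 and 145 CPM against 155, 154 and 158 CPM, again apart (log2 fold change 0.14, adjusted p = 0.000342). RPS6, the substrate of the S6 kinases, gave 1078, 1106 and 1171 CPM against 1129, 1130 and 1127 CPM. Its siFBXL6 values fall inside the siNC range (log2 fold change 0.01, adjusted p = 0.752).

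**Figure D2:**
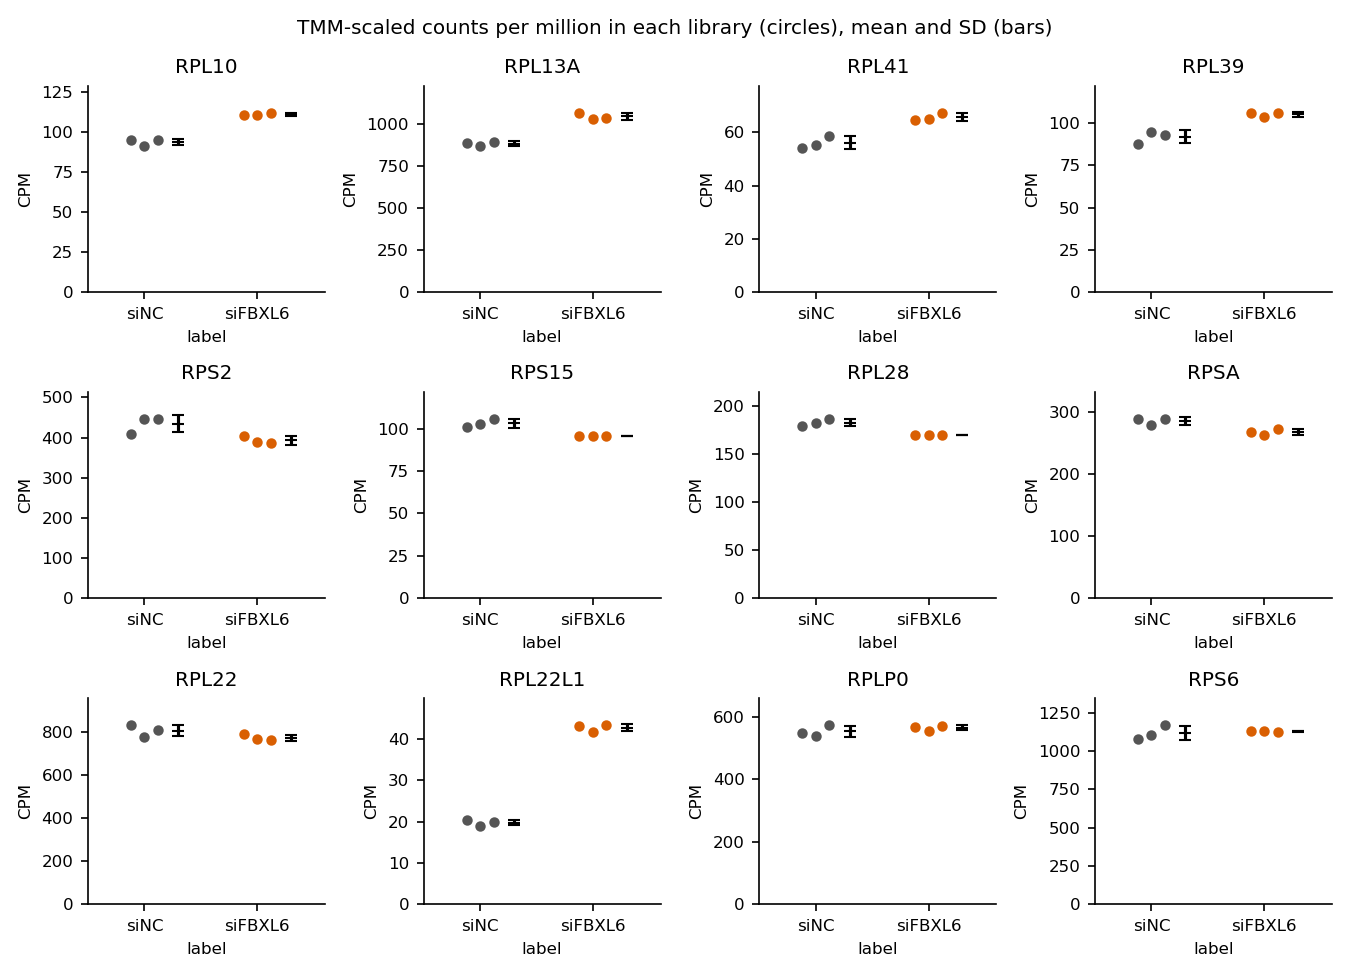
TMM-scaled CPM in each of the 6 libraries (points), with mean and SD (n = 3 per group), for RPL10, RPL13A, RPL41, RPL39, RPS2, RPS15, RPL28, RPSA, RPL22, RPL22L1, RPLP0 and RPS6. RPL22L1 goes from 19.7 to 42.8 CPM, while the members differ by at most 0.24 on the log2 scale.

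Genes mutated in Diamond-Blackfan anemia, a failure of red cell production, belong to both subunits. Of 21 listed members 5 rose and 1 fell (28.6% called, against 40.2% of all genes tested), with a median log2 fold change of -0.02, and the count called is 3 without siFBXL6 replicate 3. RPL27 and RPS7 lead the raised ones.

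Summed over the 77 members, the share of ribosomal protein messages overlapped between the groups in counts and not in TPM (counts per base of exon, scaled to the same sum in every library). The share of counts was 3.11%, 3.09% and 3.20% in siNC and 3.21%, 3.15% and 3.19% in siFBXL6, with Wilson 95% intervals no wider than 0.00457 points to either side, which cover counting error only. The siFBXL6 values lie mostly above, but siNC replicate 3 falls among them. The means were 3.13% ± 0.058 and 3.18% ± 0.0304 (SD, n = 3), with an exact two-sided permutation p of 0.3, where 3 against 3 libraries cannot give less than 0.1. The difference of 0.0535 points was 0.0314 without siNC replicate 2 and 0.0864 without siNC replicate 3. In TPM the share was 3.10%, 3.02% and 3.14% in siNC and 3.21%, 3.18% and 3.19% in siFBXL6, a difference of 0.107 points with no overlap (exact permutation p = 0.1). By subunit, the 60S share was 2.29% ± 0.0379 against 2.35% ± 0.0257 (exact p = 0.2), and the 40S share was 0.836% ± 0.0204 against 0.837% ± 0.00492 (exact p = 1).

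The balance of the subunits can be read within each library, with no scaling. The log2 ratio of summed 60S to summed 40S counts was 1.47, 1.46 and 1.44 in siNC and 1.5, 1.48 and 1.49 in siFBXL6. All siFBXL6 libraries lie above all siNC libraries, by a small step. The difference of the means was 0.03 (exact two-sided permutation p = 0.1, the smallest possible), and it was 0.02 without RPL23A. For comparison, transcripts of the mitochondrial genome took 5.82%, 6.28% and 6.29% of counts in siNC and 5.33%, 5.30% and 5.45% in siFBXL6 (exact permutation p = 0.1). Its group means differ by more than those of the ribosomal protein share, and its part in the differences above was not tested. With mitochondrial counts taken out of the total, the ribosomal protein share differed by 0.0293 points (exact permutation p = 0.5).

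**Figure D3:**
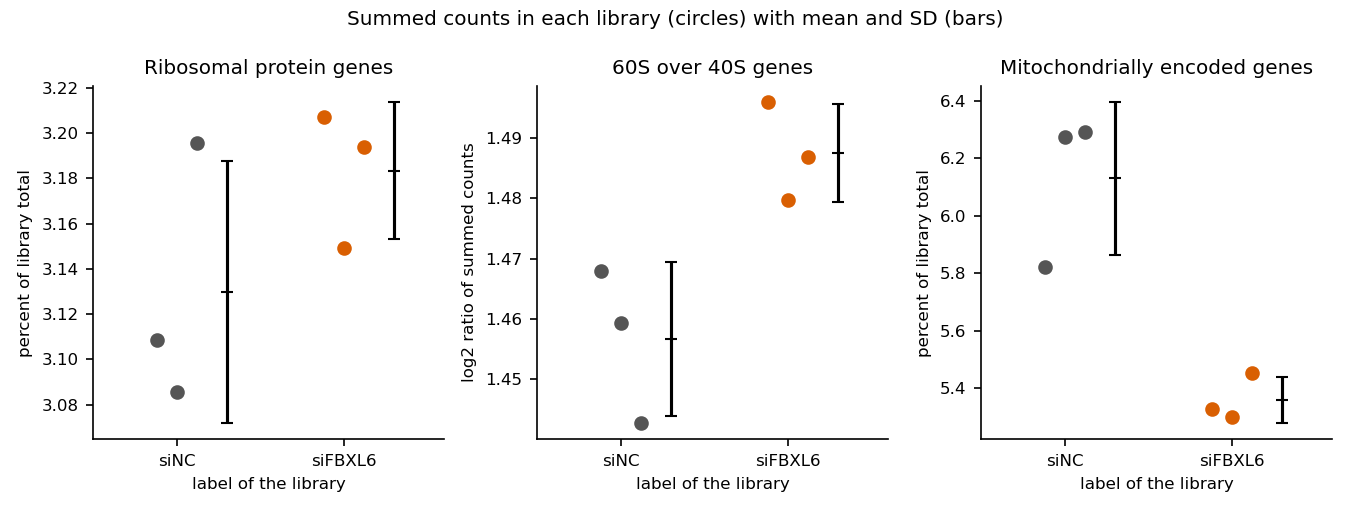
Values of each library by group (points) with mean and SD (n = 3 per group): the share of counts on the 77 members (percent, left), the log2 ratio of summed 60S to 40S counts (middle) and the share on mitochondrial genome transcripts (percent, right). The axes do not start at 0. The groups overlap in the left panel and are apart in the middle and right panels.

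Levels between members differ far more than the groups do. Per length, as TPM from the summed exon length in the table, among the highest mean levels were RPL23A at 2742, RPL5 at 2462, RPL19 at 1463 and RPL27 at 1374. The lowest were RPS29 at 5.60, RPS28 at 13.0 and RPL18 at 38.0. RPS29 shows how the length enters: its exons sum to 9783 bases in the table, whereas its canonical transcript in GENCODE release 44 has 295. Per kilobase of canonical transcript, RPS29 had 3848 counts, RPS28 429 and RPL23A 165407, so RPS28 is the lowest on that scale. Of the 3 lowest by TPM, RPS28 (-0.03, adjusted p = 0.78), RPS29 (-0.04, adjusted p = 0.644) and RPL18 (-0.02, adjusted p = 0.676) were not called.

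Counted levels of such messages can also depend on where reads are placed, and the part of this in the levels here was not tested. Of the 77 canonical transcripts, 65 share at least 1 stretch of 75 bases with a gene elsewhere in GENCODE, the median share of such stretches is 12.3%, and 11 members share over 50%. RPL9, with 85.4%, RPS3A, with 84.4%, and RPL21, with 84.4%, share the most. RPS2 shares 56.6%, RPSA 66.8% and RPS27 65.1%, and these 3 fallen members are among the 11, as are the raised members RPL17, with 75.2%, and RPL21. The other fallen members, RPS15 and RPL28, share 32.3% and 0.169%. The table has 1002 pseudogene entries named after 75 of the members. Counts on them amount to 22.2% of the member's own counts for RPSA, 16.8% for RPL41 and 8.41% for RPS2. Across the 77 genes, which are not independent replicates, the rank correlation of the shared percent was 0.296 with counts per kilobase and 0.03 with the log2 fold change. Of the 38 members above the median of shared stretches 16 rose and 4 fell, and of the other 39 members 9 rose and 1 fell, where 40.2% of all genes tested were called. The deposited notes do not say how reads with several placements were counted.

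**Figure D4:**
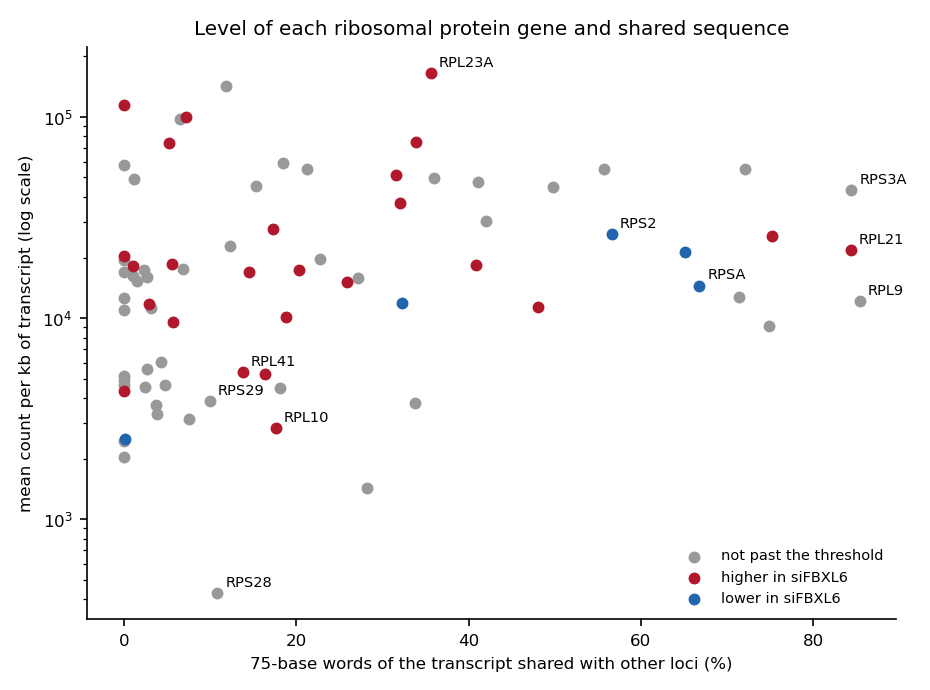
Each point is a member: the percent of 75-base stretches of its canonical transcript found at other genes (x axis) against its mean count per kilobase of canonical transcript (y axis, log scale). Levels run from 429 for RPS28 to 165407 for RPL23A.

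Neighbors and inner genes overlap many members. A snoRNA gene lies inside 28 members, of which 12 rose and 2 fell with a median log2 fold change of 0.05, and of the other 49 members 13 rose and 3 fell with a median of 0.03, where 40.2% of all genes tested were called. RPL13A carries SNORD32A, SNORD33, SNORD34 and SNORD35A, guides of rRNA methylation, and same-strand genes cover 17.3% of its exon bases. RPS2 carries SNORA10 and SNORA64, guides of pseudouridylation, and same-strand genes cover 25.6% of it. Genes on the opposite strand, DNASE1L1 among them, cover 52.7% of the exon bases of RPL10. Members with an opposite-strand overlap number 28, of which 8 rose and the others were not called, and of the 49 without one 17 rose and 5 fell (40.2% of all genes tested were called). Among 412 entries named SNORA or SNORD, 102 could be tested, and 3 rose and 5 fell (7.84% called, against 40.2% of all genes tested). Without regard to sign their median log2 fold change was 0.25, against 0.18 for all genes tested. The low share called is thus no sign of small differences. The strand setting of the counting is not stated, and the part of such overlaps in the fold changes was not tested.

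The widest difference in the ribosomal protein family lies outside the rule, in a paralog. RPL22L1, a close relative of RPL22 that can take its place in the 60S subunit, lies at chr3:170864875-170870483. Its raw counts were 1188, 1174 and 1142 in siNC and 2610, 2528 and 2620 in siFBXL6. Every siFBXL6 library holds over 2 times the counts of any siNC library. The level was 19.7 ± 0.668 CPM in siNC and 42.8 ± 0.857 CPM in siFBXL6 (SD, n = 3), a log2 fold change of 1.12 (95% interval 1.03 to 1.21, adjusted p = 2.39e-20), and 2.92% of all genes tested were called with a change of at least 2-fold. No exon of RPL22L1 overlaps another gene, no stretch of 75 bases of its canonical transcript occurs at another gene, and the table has 0 pseudogene entries named after it. RPL22 itself had raw counts of 48685, 48070 and 46343 in siNC and 47728, 46367 and 45917 in siFBXL6. RPL22L1 thus made up 2.39% ± 0.0127 of the counts of the pair in siNC and 5.25% ± 0.127 in siFBXL6 (SD, n = 3, exact permutation p = 0.1). RPL22 stayed far the more abundant of the pair in all 6 libraries.

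Of 10 listed paralogs and fusion genes outside the rule, 7 could be tested, of which 4 rose (57.1% called, against 40.2% of all genes tested). RPL3L, RPL10L and RPL39L had at most 7 counts in any library. RPL7L1, a relative of RPL7, rose by 0.14 (adjusted p = 0.00101). FAU, a ubiquitin-like fusion that yields RPS30, rose by 0.09 (adjusted p = 0.0275). The FAU call is lost with upper-quartile scaling (0.0953), with library size alone (0.105), without siNC replicate 1 (0.101) and without siFBXL6 replicate 1, 2 or 3 (0.105, 0.0603 and 0.0692). RPS27L, a relative of RPS27, gave 10.4, 12.4 and 12 CPM in siNC and 13.3, 14.0 and 12.3 CPM in siFBXL6, so the groups overlap. Its rise of 0.19 (adjusted p = 0.0311) is lost with DESeq2 (0.099), with upper-quartile scaling (0.0534), with library size alone (0.0665), and without siNC replicate 1 (0.219), siFBXL6 replicate 1 (0.0823) or siFBXL6 replicate 2 (0.178). RPL36AL was at 0.01 (adjusted p = 0.907) and RPL26L1 at 0.00 (0.965).

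Other genes with TOP messages are mostly translation factors. Of 21 such genes, 13 rose and 4 fell (81% called), with a median log2 fold change of 0.09, where 40.2% of all genes tested and 66.9% of those with a mean log2 CPM of at least 6 were called. VIM, an intermediate filament protein, rose by 0.70 (adjusted p = 2.57e-13), from 16.1, 15.6 and 15.1 CPM to 26.0, 25.2 and 25.0 CPM. EEF1B2, the exchange factor of elongation factor eEF1A, fell by 0.31 on the log2 scale (adjusted p = 2.11e-10), and EIF4A2, a helicase of initiation, fell by 0.24 (adjusted p = 3.89e-08). Of the 15 found in the RefSeq table, 13 have a tract (86.7%).

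Of 62 listed genes that build ribosomes, 14 rose and 9 fell, with a median log2 fold change of 0.00. The share called, 37.1%, is near the 40.2% of all genes tested. SBDS, which frees the 60S subunit for joining, rose by 0.48 (adjusted p = 1.04e-13), and RRN3, an initiation factor of RNA polymerase I, rose by 0.40 (adjusted p = 7.35e-11). UBTF, which holds rRNA genes open, fell by 0.33 on the log2 scale (adjusted p = 7.58e-11). Among 11 chaperones and escorts of ribosomal proteins 4 rose and 4 fell (72.7% called, against 40.2% of all genes tested). IPO7, an importin, fell by 0.27 (adjusted p = 2.19e-09), while IPO5, another importin, rose by 0.15 (adjusted p = 6.53e-05) and AAMP rose by 0.15 (adjusted p = 0.00013).

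Genes that control ribosomal protein output gave 6 raised and 4 fallen of 20 (50% called, against 40.2% of all genes tested). ZNF598, the ubiquitin ligase that marks collided ribosomes, rose by 0.49 (adjusted p = 9.94e-14). EIF4EBP2, a repressor of cap-dependent initiation under mTOR, rose by 0.41 (adjusted p = 1.32e-08), and YY1, a factor bound at many ribosomal protein promoters, fell by 0.39 on the log2 scale (adjusted p = 1.48e-11). MDM2, a ubiquitin ligase that RPL5 and RPL11 can bind, rose by 0.11 (adjusted p = 0.0239), and CDKN1A, an inhibitor of cyclin-dependent kinases, rose by 0.09 (adjusted p = 0.0496). The MDM2 call is lost with DESeq2 (0.0597), with upper-quartile scaling (0.0698), with library size alone (0.0731), without siNC replicate 2 or 3 (0.0715 and 0.0861) and without siFBXL6 replicate 2 or 3 (0.145 and 0.0805). The CDKN1A call is lost in most settings, among them DESeq2 (0.113), siNC replicate 1 or 2 left out (0.201 and 0.113) and siFBXL6 replicate 1, 2 or 3 left out (0.0778, 0.144 and 0.111).

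Host genes of snoRNAs can also start with a TOP tract. Of 10 listed, 8 were found and tested, and 1 rose (12.5% called, against 40.2% of all genes tested). That gene, ZFAS1, rose by 0.11 (adjusted p = 0.00557), a call lost without siFBXL6 replicate 2 (0.0539). SNHG12 was at 0.21 (adjusted p = 0.0557), and is called without siNC replicate 3 (0.0408) or siFBXL6 replicate 2 (0.0465), and SNHG5 was at 0.12 (adjusted p = 0.211). Proteins of the mitochondrial ribosome, named MRPL or MRPS, gave 10 raised and 18 fallen of 75 (37.3% called, near the 40.2% of all genes tested), with a median log2 fold change of -0.04. Over all 132 tested genes of the surrounding lists, 43 rose and 22 fell (49.2% called, against 40.2% of all genes tested). With upper-quartile scaling 35 rose and 28 fell, and with library size alone 35 rose and 30 fell.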

How the data were processed

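In all, 6 stranded mRNA libraries of T24 cells were used, 3 labelled siNC and 3 labelled siFBXL6. The authors deposited a count per gene without normalization. The sample notes name fastp 0.23.0, STAR and featureCounts of Subread 1.5.1 on GRCh38, whereas the methods of the paper name Trimmomatic and HISAT2. Annotation release, strand setting, treatment of multi-mapping reads and which of the siRNAs against FBXL6 each library received are not stated. Genes were filtered with filterByExpr (21298 of 56303 kept), scaled with TMM and tested with edgeR 4.0.16 (quasi-likelihood, limma 3.58.1, R 4.3.3), with Benjamini-Hochberg adjustment over all genes tested and a threshold of 0.05. Permutation tests were exact and two-sided (scipy 1.17.1). DESeq2 1.42.0, other scalings and filters, a replicate block, an exon length offset, summed pseudogenes and each library left out were alternatives. Named are FBXL6, ACTB and GAPDH, the 10 members with the highest and the 10 with the lowest log2 fold change, the 5 highest and 3 lowest by TPM, the P stalk and 5S members, RPS6, RPS27A and RPSA, each tested paralog, and, in each other list, the 3 genes with the lowest adjusted p. RPL37A, RPL9, RPL21 and RPS3A were named after their values were seen. Some genes that the rule selects are not reported. The members and lists were chosen with earlier results of these data known.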

Additional observations from a re-analysis of the deposited data

How the results depend on the processing

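Across the alternatives, the number of members called ran from 20 (adjusted p under 0.01) to 34 (without siNC replicate 1), and every direction of a called member was kept. Of the 40S members 7 instead of 11 were called at an adjusted p under 0.01, through the stricter threshold, and 7 to 12 with a library left out, 7 of them without siFBXL6 replicate 2, where fewer libraries were tested. The numbers in the labels do not pair libraries: same-number correlations of residuals were -0.046, 0.012 and -0.007. With the number as a block, 28 members were called, all among the 30 (23 higher, 5 lower), 17 of the 60S and 11 of the 40S, 63 genes of the surrounding lists, and FBXL6 was at -0.13 (adjusted p = 0.264). For 65 genes taken by the naming rule besides FBXL6, 952 of 1013 values under alternatives kept direction and side of the threshold, 45 lost the call, 16 gained it and 0 changed sign past it. The restriction to members with a mean log2 CPM of at least 6 was chosen after seeing the data. The coefficient of variation between libraries, which edgeR names biological, was 3.57%. Whether it holds a spread between separate cultures is not known, since the labels do not say so.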
